A study of Mus musculus with 10 samples.

Results

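ABC transporters are membrane pumps that use ATP to move substrates out of the cytoplasm or across a bilayer, and 7 of their genes were followed here in hematopoietic stem cells (HSCs) of aged mice. They were taken by the gene symbol of the platform annotation, with no measured value used, as efflux pumps and sterol exporters: Abcg2, Abcb1a, Abcb1b, Abcc1, Abcc4, Abca1 and Abcg1. Each of the 7 had exactly 1 probe set of its own among the 22180 genes measured. SLAM+ HSCs from lineage-depleted marrow of C57BL/6J mice aged 18 months were profiled on 10 arrays, and each animal had its own array. The groups were Ahr knockout (AHR-KO, n = 5) and wild type (WT, n = 5). The knockout is global, so the marrow stroma lacks the aryl hydrocarbon receptor (AHR) as well as the blood cells. No treatment is given in the labels for either group, and neither is the sex of the mice. Values are given on the log2(signal + 16) scale, on which a difference of 1 is close to a doubling at high signal and understates the change of dim genes.

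AHR is a ligand-activated transcription factor that pairs with ARNT and binds DNA at a short core, and its ligands include foreign compounds of the kind that efflux pumps remove. Abcg2, the breast cancer resistance protein, extrudes the dye Hoechst and thereby defines the side population, a dye-based definition of stem cells in mouse marrow. The Abcb1 genes encode P-glycoprotein, a pump of broad range that also extrudes rhodamine dyes. In humans it has a single gene, and mice have a pair of neighbouring copies. Abcc1 and Abcc4 export glutathione conjugates, leukotrienes, prostaglandins and cyclic nucleotides. Abca1 and Abcg1 hand cholesterol to apolipoprotein A-I and to high-density lipoprotein, are targets of the liver X receptors (LXR), and together restrain the proliferation of mouse hematopoietic progenitors. In human cells, AHR agonists are known to raise ABCG2.

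The promoters are shown first, because the comparison concerns the loss of a DNA-binding factor. RefSeq sequences of GRCm38.p6 covered 5 of the 7 genes in 8 windows, each of the 250 bases before an annotated start. The core bound by AHR with ARNT, GCGTG, was searched on both strands without further context. It was found in 28.2% of the 32851 promoter windows of the same length and in 1 of the 8 windows of these genes. That window belongs to Abcc4 (chr14:118706220-118706469, minus strand) and holds 2 matches, which begin 101 and 94 bases before the start and read CACGC because the core lies on the opposite strand. Of the 3 windows of Abcg2, the one farthest downstream (chr6:58640296-58640545, plus strand) had 67.6% G and C but no match. The neighbouring copies Abcb1a (chr5:8566841-8567090, plus strand) and Abcb1b (chr5:8797897-8798146, plus strand) had none either, and differed in base composition, with 40.4% and 52.8% G and C. Matches are in capitals.
Abcc4: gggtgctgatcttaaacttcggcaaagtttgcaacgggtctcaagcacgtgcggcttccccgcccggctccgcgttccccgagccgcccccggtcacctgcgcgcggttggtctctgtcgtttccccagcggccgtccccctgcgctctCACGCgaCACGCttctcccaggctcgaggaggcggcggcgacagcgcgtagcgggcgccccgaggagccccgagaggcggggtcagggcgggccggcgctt
Abcg2: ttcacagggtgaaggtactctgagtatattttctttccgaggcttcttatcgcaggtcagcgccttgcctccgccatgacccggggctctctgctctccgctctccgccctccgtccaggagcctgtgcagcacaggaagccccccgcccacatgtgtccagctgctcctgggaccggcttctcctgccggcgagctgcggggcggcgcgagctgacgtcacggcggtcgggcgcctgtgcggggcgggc
Abcb1a: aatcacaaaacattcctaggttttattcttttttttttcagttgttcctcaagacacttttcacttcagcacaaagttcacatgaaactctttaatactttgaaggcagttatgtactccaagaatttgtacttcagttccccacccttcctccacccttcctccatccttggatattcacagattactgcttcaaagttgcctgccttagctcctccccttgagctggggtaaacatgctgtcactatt
Abcb1b: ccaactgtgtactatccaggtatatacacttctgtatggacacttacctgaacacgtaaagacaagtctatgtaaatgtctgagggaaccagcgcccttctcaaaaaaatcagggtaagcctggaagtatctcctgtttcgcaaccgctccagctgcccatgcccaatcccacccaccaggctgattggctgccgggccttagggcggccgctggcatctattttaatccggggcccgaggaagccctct
The window of Abca1 (chr4:53159896-53160145, minus strand) held no GCGTG. It also held no exact LXR direct repeat, 2 copies of AGGTCA spaced by 4 bases, searched on both strands. That exact form was found in 5 of all 32851 windows. Diverged forms of the repeat were not searched, so the absence of an LXR element does not follow. A match describes letters only, and binding was not measured.

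Before the transporters were compared, the arrays were set against their labels. Of 17 HSC markers 15 were measured, and 14 of them had a mean above 5.5, the level that 95% of 1483 genes of odorant, pheromone and taste receptors and hair proteins stay below. Kit, Hlf and Mllt3, the brightest of the 15, had means of 9.76, 9.90 and 9.47, and Fgd5, at 5.3, was the marker within the background range. Slamf1 and Procr had 6.71 and 6.96. The neutrophil markers Mpo and Elane and the monocyte marker Lyz2 were brighter than any of the 15, at 11.94, 10.98 and 11.47. These levels therefore do not measure how pure the sort was. The probe set of the targeted gene, Ahr, gave 5.97 ± 0.52 (SD, n = 5) in knockout arrays against 5.74 ± 0.74 (SD, n = 5) in wild-type arrays, with an adjusted p = 0.998 from limma. The lesion of the allele is not given in the sources used here, and whether the probes lie inside it is unknown, so this value does not check the labels. By the sign of the leading principal component over all genes (30.6% of the variance) the arrays formed a set of 4, made of AHR-KO 1, AHR-KO 2, WT 1 and WT 5, and a set of 6. These sets were defined from the data and are not groups of the study. No gene of the 22180 passed an adjusted p under 0.05 in limma (percent called 0), and 830 had an unadjusted p under 0.05.

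The first question was whether loss of AHR changed the level of the transporter genes, and none of the 7 passed the test after adjustment. The mean of 6 was on the higher side in AHR-KO and that of Abca1 on the lower side, each by less than 1.5-fold. Of the 7, 1 had an unadjusted p under 0.05 as higher, where 1.81% of all genes did, and 0 as lower, where 1.93% did. The study threshold, a 1.5-fold change together with an unadjusted p under 0.05, called 0 of the 7, beside 0.18% of all genes called as higher and 0.343% as lower. In none of the 7 did the 5 AHR-KO arrays lie entirely on one side of the 5 WT arrays, which 0.681% of all genes did. Their median log2 fold change was 0.07, against 0.004 over all genes.

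**Figure D1:**
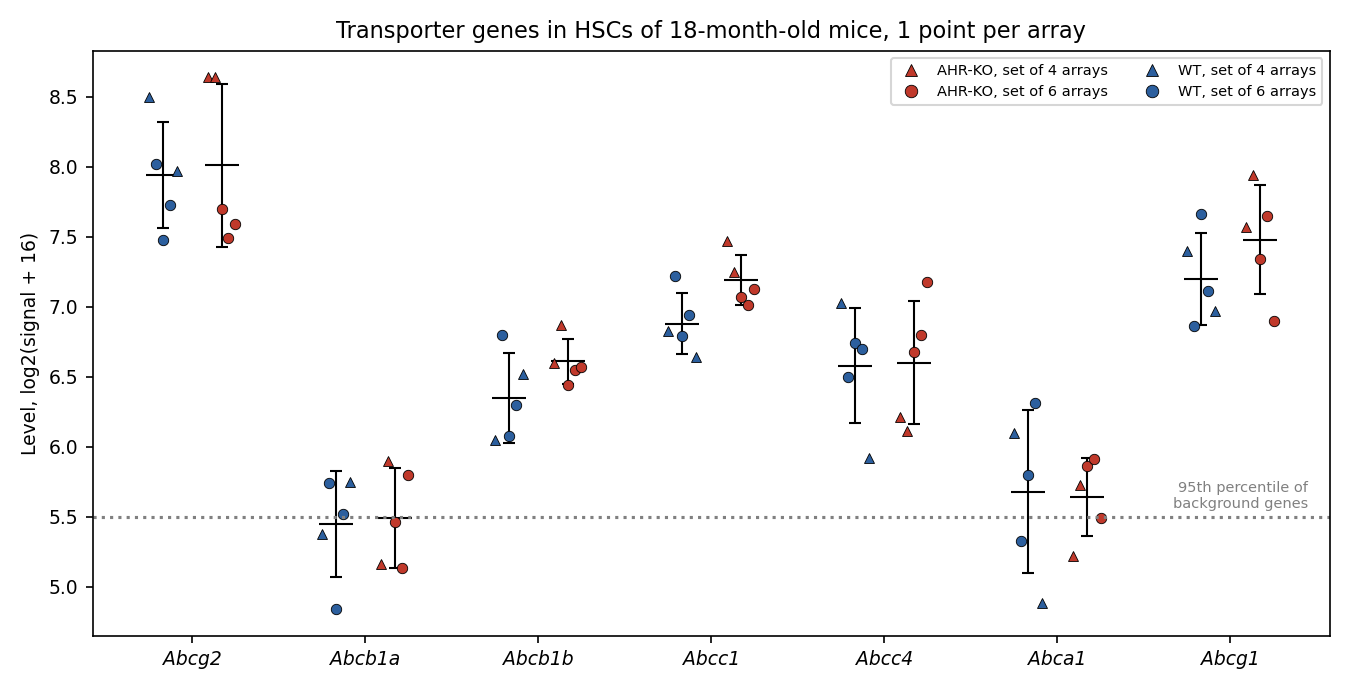
Level of the 7 transporter genes on the log2(signal + 16) axis, with 1 point per array, WT in blue and AHR-KO in red, triangles for the set of 4 arrays and circles for the set of 6, and bars at the mean ± SD of 5 arrays. The groups overlap in every gene, and the dotted line at 5.5 is the level that 95% of background genes stay below.

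Abcg2, the side-population pump, had a clear signal in both groups, above 99.9% of the background genes. Its AHR-KO arrays read 8.64, 8.64, 7.70, 7.49 and 7.59 for replicates 1 to 5. The WT arrays read 8.50, 8.02, 7.48, 7.73 and 7.97. The high values were those of AHR-KO replicates 1 and 2 and WT replicate 1, and the other 7 arrays of both genotypes lay together between 7.48 and 8.02. The means were 8.01 ± 0.58 (SD, n = 5) and 7.94 ± 0.38 (SD, n = 5), which differ by 0.07 on the log2 scale (SE 0.27, adjusted p = 0.999 from limma). Two-sided exact permutation of the 10 arrays gave p = 0.841. The 95% interval of the difference ran from -0.52 to 0.66. The sign itself turned without AHR-KO replicate 1 (-0.09), AHR-KO replicate 2 (-0.09) or WT replicate 3 (-0.04).

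The P-glycoprotein genes have a probe set each, but they are close paralogs, and how far the probes of one read the other was not tested. Abcb1a was dim. Its mean over the 10 arrays, 5.47, lay above 94.7% of the background genes, just inside the background range. In AHR-KO it read 5.16, 5.90, 5.46, 5.13 and 5.80, and in WT 5.38, 5.74, 4.84, 5.52 and 5.75. The groups overlapped over most of their range, and differed by 0.04 on the log2 scale (SE 0.21, 95% interval -0.41 to 0.50, exact permutation p = 0.849). Abcb1b, the copy with a clear signal, read 6.60, 6.87, 6.44, 6.55 and 6.57 in AHR-KO and 6.05, 6.80, 6.08, 6.30 and 6.52 in WT. All 5 AHR-KO arrays of Abcb1b were above the WT median, but only AHR-KO replicate 2 was above the highest WT array, replicate 2. The AHR-KO arrays were also closer to each other, with 6.61 ± 0.16 (SD, n = 5) against 6.35 ± 0.32 (SD, n = 5). For Abcb1b the log2 fold change was 0.25 (SE 0.16, 95% interval -0.09 to 0.60), with an exact permutation p = 0.151 and an adjusted p = 0.998 from limma.

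Abcc1, the multidrug resistance protein that exports glutathione conjugates and leukotriene C4, showed the largest difference of the 7 genes relative to its error. The AHR-KO arrays read 7.47, 7.25, 7.07, 7.01 and 7.13. The WT arrays read 6.83, 7.22, 6.79, 6.94 and 6.64. Every AHR-KO array was above the WT median and above 4 of the 5 WT arrays, and WT replicate 2 alone reached into the AHR-KO range. The means were 7.19 ± 0.18 (SD, n = 5) and 6.88 ± 0.22 (SD, n = 5), a 1.23-fold difference (0.30 on the log2 scale, SE 0.14, 95% interval 0.01 to 0.60). The exact permutation p was 0.0476 and the unadjusted p in limma 0.0461, while the adjusted p over all genes was 0.998. Leaving out 1 array moved the log2 fold change between 0.23 and 0.39 and the unadjusted limma p between 0.0128 and 0.114. Omitting AHR-KO 1, 2 or 5, or WT 1, 3, 4 or 5, put that p over 0.05. Over all 23 alternatives of processing, it was under 0.05 in 9.

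Abcc4, the multidrug resistance protein that exports cyclic nucleotides and prostaglandins, was the gene whose promoter window held the GCGTG matches printed above. Its AHR-KO arrays read 6.21, 6.11, 6.68, 6.80 and 7.18, and its WT arrays 7.03, 6.50, 6.74, 6.70 and 5.92. The lowest arrays were WT replicate 5 and AHR-KO replicates 2 and 1, and the highest were AHR-KO replicate 5 and WT replicate 1, so both genotypes had high and low arrays. The difference was 0.02 on the log2 scale (SE 0.24, 95% interval -0.50 to 0.54, exact permutation p = 0.96). The sign turned in 5 of the 10 fits with 1 array left out.

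Neither of the sterol exporters passed the test. Abca1 was dim, with a mean of 5.66 above 96.2% of background genes. It read 5.22, 5.73, 5.86, 5.91 and 5.49 in AHR-KO and 6.10, 5.33, 5.80, 6.31 and 4.88 in WT. Both the highest and the lowest array of Abca1 were WT, and the 5 AHR-KO arrays lay between them. Abca1 differed by -0.04 on the log2 scale (SE 0.25, 95% interval -0.59 to 0.51, exact permutation p = 0.897). Abcg1 read 7.57, 7.94, 7.34, 7.65 and 6.90 in AHR-KO and 7.40, 6.86, 7.66, 7.11 and 6.97 in WT. AHR-KO replicate 2 was its highest array, and AHR-KO replicate 5 and WT replicate 2 its lowest. The means of Abcg1 were 7.48 ± 0.39 (SD, n = 5) and 7.20 ± 0.33 (SD, n = 5), a difference of 0.28 on the log2 scale (SE 0.21, 95% interval -0.17 to 0.73, exact permutation p = 0.27). Of the 18 measured genes of the sterol efflux and LXR pathway listed, 10 were higher and 8 lower in AHR-KO with a median log2 fold change of 0.01, and 1 was higher at an unadjusted p under 0.05, beside 1.81% of all genes. That gene was Nr1h3, which encodes LXR alpha. It read 5.35, 5.40, 5.52, 5.57 and 5.36 in AHR-KO and 5.14, 4.77, 5.48, 4.95 and 5.18 in WT. Its mean over the 10 arrays, 5.27, was within the background range, below 5.5. The groups differed by 0.34 on the log2 scale (SE 0.14, adjusted p = 0.998 from limma). WT replicate 3 alone overlapped the AHR-KO arrays of Nr1h3.

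The level of Abcg2 moved with the array sets. In the set of 4 it read 7.97 to 8.64 and in the set of 6 from 7.48 to 8.02, a difference of means of 0.77, larger in size than that of 95.9% of all genes. The sets were drawn from all genes, so this is a description without a test. Abcc4 went the other way, by -0.45, and the remaining 5 genes differed between the sets by -0.30 to 0.21. Some of the cell type markers, those of HSCs and of myeloid cells among them, moved with the same sets, in AHR-KO and WT arrays alike. Of the 15 HSC markers measured, 14 were higher in the set of 4 (Thy1 was lower, by -0.81), and their summed signal was 5293 to 6459 there and 2712 to 4727 in the set of 6. Of the monocyte, macrophage and dendritic cell markers 19 of 20 were measured and 16 were above background, with a score of -1.02 to -0.16 in the set of 4 and 0.11 to 0.56 in the set of 6. The score is the mean log2 deviation of the markers from their 10-array means. By this score the HSC markers overlapped slightly between the sets, at 0.02 to 0.50 in the set of 4 and -0.57 to 0.03 in the set of 6. Lymphoid scores did not overlap, at -0.51 to -0.24 in the set of 4 and -0.17 to 0.97 in the set of 6. Those of the endothelial, erythroid, mast cell and basophil, megakaryocyte and stromal lists overlapped between the sets. Neutrophil markers, 13 of 15 above background (Ltf and Mmp9 were not), scored -1.58 to -0.27 in the set of 4 and -0.08 to 1.87 in the set of 6. Between genotypes the summed signal of these myeloid markers overlapped, at 3413 to 13450 in AHR-KO and 5132 to 10920 in WT, and Cd14, Itgax and Siglec1 were within the background range. The neutrophil sums were 4314 to 30790 in AHR-KO and 6576 to 17170 in WT. By genotype, 14 of the 15 HSC markers had a lower mean in AHR-KO, with scores of -0.57 to 0.29 against -0.15 to 0.50 in WT. The scores of the other 6 marker lists overlapped between the genotypes, although 9 of 9 erythroid markers measured had a higher mean in AHR-KO, and 8 of 10 mast cell and basophil markers and 7 of 8 stromal markers a lower one. The remaining lists were endothelial, megakaryocyte and lymphoid. Of the mast cell and basophil markers 6 of 10 were above background, and of the stromal markers 6 of 8 (Col3a1 and Lum were not). At an unadjusted p under 0.05 in limma were 3 mast cell and basophil, 2 stromal and 1 endothelial marker, and 0 of the other lists. Over all genes, 830 of 22180 had such a p. The part of these cell types in the transporter levels was not tested, and in sorted bulk cells fewer cells of a type and less RNA per cell cannot be told apart.

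**Figure D2:**
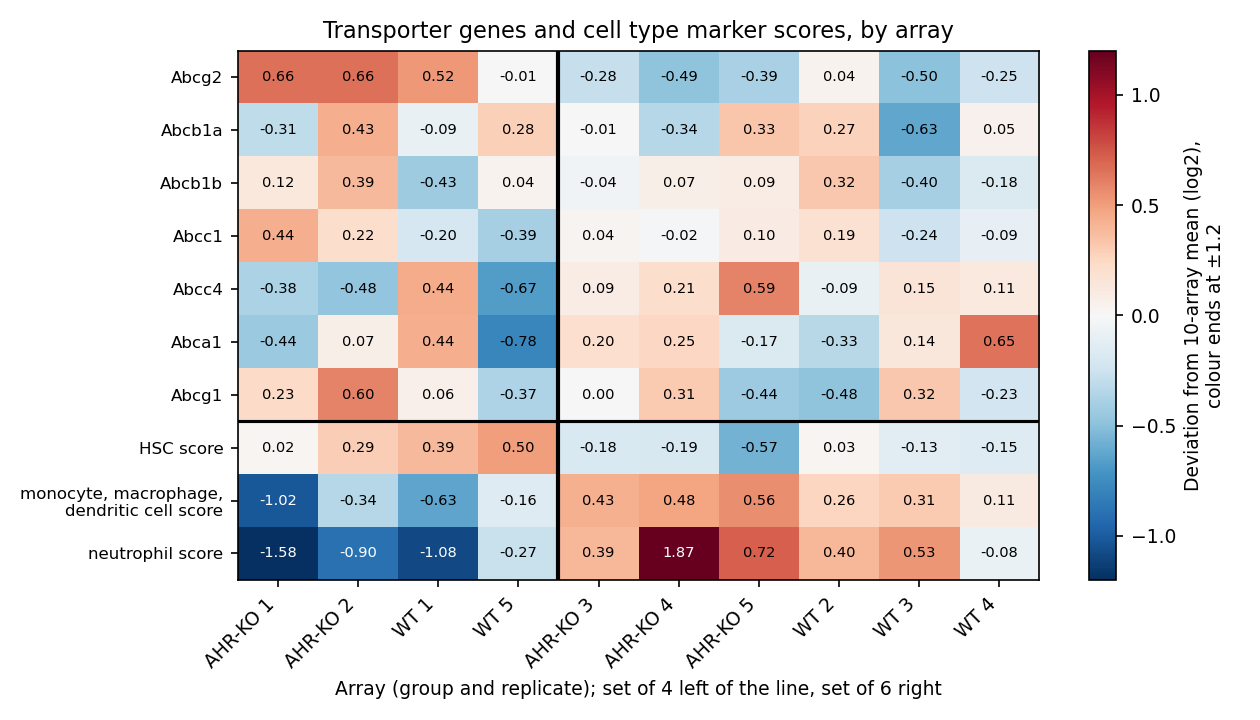
Deviation of each transporter gene from its mean over the 10 arrays (log2, colour and number), with the scores of 3 marker lists below, arrays in columns by set and genotype. Abcg2 is above its mean in 3 of the 4 arrays left of the line and at 7.97, next to its mean, in WT replicate 5, while both myeloid scores are below 0 in all 4.

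The differences between the genotypes were also computed within each array set. In the set of 4, with 2 arrays per genotype, the log2 fold change was 0.63 for Abcc1, 0.57 for Abcg1 and 0.45 for Abcb1b. In the set of 6, with 3 arrays per genotype, the same genes had 0.09, 0.09 and 0.13. Abcg2 was 0.40 in the set of 4 and -0.15 in the set of 6, and Abcc4 was -0.31 and 0.24. Whether the sets differ in these values was not tested. With the array set as a block over all 10 arrays, Abcc1 had an unadjusted p = 0.0499 from limma and an adjusted p = 0.848. The sets were drawn from these same values, so the block and the split are descriptions and not independent checks.

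Because the arrays fell into sets, the genes were compared with each other within the set of 6, over 21 pairs. Abcb1b and Abcc1 varied together there, with Pearson's r = 0.957 (exact permutation p = 0.00694, adjusted over the pairs 0.0729) and Spearman's rho = 0.943 (exact permutation p = 0.0167, adjusted 0.175). Without the 2 arrays farthest from the median of Abcb1b, r was 0.756. The AHR-KO arrays of this set lay close together, at 6.44 to 6.57 for Abcb1b and 7.01 to 7.13 for Abcc1. The WT arrays spread over 6.08 to 6.80 and 6.79 to 7.22. Whether the 2 genes vary together within each genotype was not tested. Abcb1a, whose level is within the background range, and Abcg1 varied in opposite directions, with r = -0.95 (exact permutation p = 0.00417, adjusted 0.0729) and rho = -0.943 (exact permutation p = 0.0167, adjusted 0.175), and r was -0.935 without the 2 arrays farthest from the median of Abcb1a. The third pair with an unadjusted p under 0.05 was Abcb1a and Abcc1, with r = 0.851 (exact permutation p = 0.0292, adjusted 0.204) and rho = 0.771 (exact permutation p = 0.103). No pair passed after adjustment. Over all 10 arrays, which mix the sets, these coefficients were smaller in size. There r was 0.643 for Abcb1b and Abcc1 (permutation p = 0.0453), -0.453 for Abcb1a and Abcg1 (permutation p = 0.189) and 0.137 for Abcb1a and Abcc1 (permutation p = 0.706). In the same order rho was 0.806 (permutation p = 0.007, adjusted 0.147), -0.418 (permutation p = 0.234) and 0.273 (permutation p = 0.45). The smallest adjusted permutation p over the 21 pairs was 0.447 for r and 0.147 for rho. Within the set of 6, the LXR targets Abca1 and Abcg1 had r = 0.438 (exact permutation p = 0.404, adjusted 0.598) and rho = 0.486 (exact permutation p = 0.356). The P-glycoprotein copies had r = 0.725 there (exact permutation p = 0.101, adjusted 0.334) and rho = 0.714 (exact permutation p = 0.136).

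**Figure D3:**
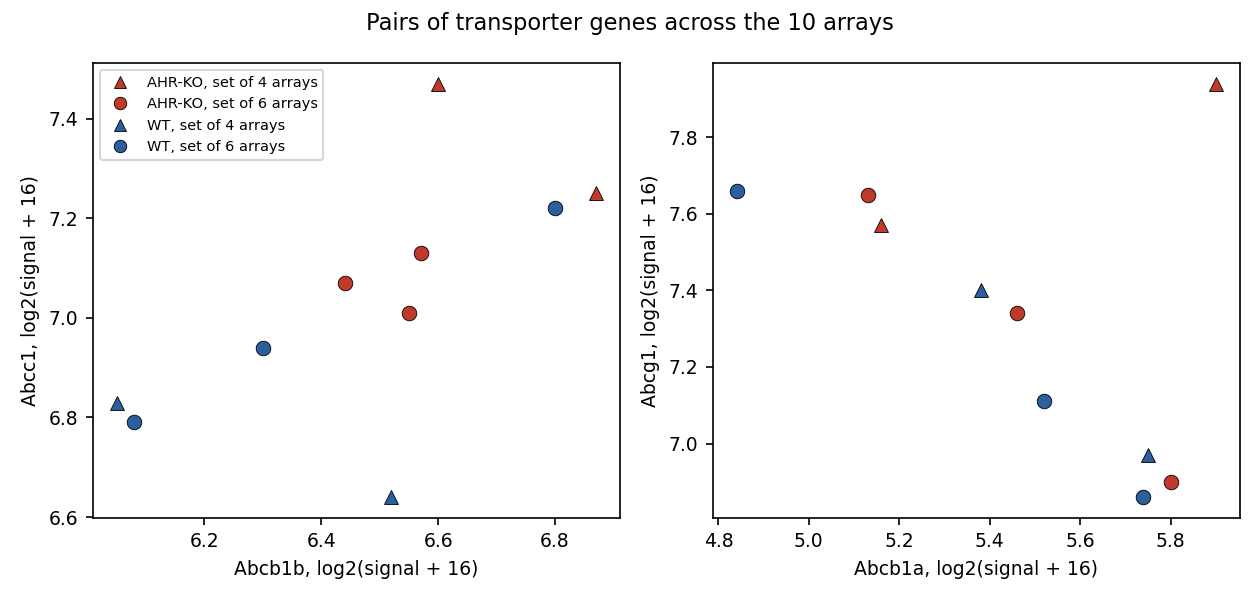
Level of Abcb1b against Abcc1 (left) and of Abcb1a against Abcg1 (right), in log2(signal + 16), with 1 point per array, AHR-KO in red, WT in blue, triangles for the set of 4 and circles for the set of 6. The circles rise together on the left and fall on the right, and the triangle at the top right of the right panel is AHR-KO replicate 2, at 5.90 and 7.94.

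Genes most like each transporter over the 10 arrays were sought among 11090 genes above the median level, as a description. Abcg2 was followed most closely by Scoc, Gucy1a1 and Dsel, with Pearson's r of 0.968, 0.965 and 0.963 over the 10 arrays and 0.754, 0.838 and 0.785 within the set of 6. Gucy1a1 encodes a subunit of the nitric oxide receptor guanylate cyclase. For Abcc1 they were Ncdn, the ion cotransporter gene Slc12a2 and the phosphatase gene Ptpn2, with r of 0.937, 0.908 and 0.906. Within the set of 6 these were 0.837, 0.621 and 0.81. For Abcc4 they were the amino acid transporter gene Slc16a10, Setd5 and Rmc1, with r of 0.942, 0.923 and 0.912, and 0.807, 0.624 and 0.68 within the set of 6. Abcg1 was followed by the prefoldin gene Pfdn2, Bpifb9b and Wdr61 (0.944, 0.899 and 0.874), Abcb1b by the RNA polymerase II gene Polr2a, Zbed3 and St7 (0.901, 0.884 and 0.882), Abcb1a by Zfp3, Fxyd6 and Enpp4 (0.914, 0.891 and 0.889) and Abca1 by Ebpl, Wdsub1 and Tbccd1 (0.895, 0.880 and 0.880). Within the set of 6, r was 0.872 to 0.948 for the genes of Abcg1 and 0.89 to 0.962 for those of Abcb1b. It was 0.957 to 0.983 for those of Abcb1a and 0.751 to 0.879 for those of Abca1. The arrays share their normalization and their sets, and the highest of 11090 values is high by selection.

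The rest of the ABC family was examined for the same comparison. Of 53 family genes listed, 51 were measured and 31 had a mean above the background level. In AHR-KO 35 of the 51 were higher and 16 lower, with a median log2 fold change of 0.06, where 51.1% of all genes were higher. At an unadjusted p under 0.05 there were 1 higher gene, Abcc1, and 1 lower gene, Abca5, a lysosomal transporter of subfamily A, beside 1.81% and 1.93% of all genes. The study threshold called 0 of the 51, beside 0.18% of all genes as higher and 0.343% as lower. Abca5 read 4.75, 4.95, 5.07, 4.73 and 4.72 in AHR-KO and 6.05, 5.31, 5.63, 5.18 and 4.72 in WT, so 4 WT arrays were above all AHR-KO arrays, but its mean of 5.11 was within the background range. The groups of Abca5 differed by -0.53 on the log2 scale (SE 0.21, adjusted p = 0.998 from limma).
By subfamily, the count of higher genes was 7 of 16 in A, 8 of 11 in B, 10 of 11 in C, 3 of 3 in D, 3 of 4 in E and F and 4 of 6 in G. The median log2 fold changes, in the same order, were -0.02, 0.07, 0.14, 0.01, 0.07 and 0.07. The counts include differences near 0, such as those of Abcc3 and Abcd3. In the same order 6, 6, 8, 3, 4 and 4 genes had a mean above the background level. In subfamily B the smallest unadjusted p values belonged to Abcb10, a mitochondrial inner membrane transporter important in erythroid cells, with a log2 fold change of 0.36 (SE 0.18), and to Abcb1b. In subfamily G they belonged to Abcg3, a rodent relative of Abcg2, with -0.52 (SE 0.28), and to Abcg1. Abcg3 read 7.13, 7.53, 6.57, 7.18 and 5.95 in AHR-KO and 7.78, 7.06, 7.41, 7.75 and 6.97 in WT, and the groups overlapped. Abcf1 and Abce1, which act in translation and carry no membrane domain, had 0.29 (SE 0.17) and 0.12 (SE 0.11). Abcd2, a peroxisomal fatty acid transporter, had 0.07 (SE 0.38), and Abcd4, which acts in the lysosomal handling of cobalamin, had 0.01 (SE 0.39). Abcc9, picked out after its value was seen, had the highest log2 fold change of the family, 0.80, with a SE of 0.69.

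**Figure D4:**
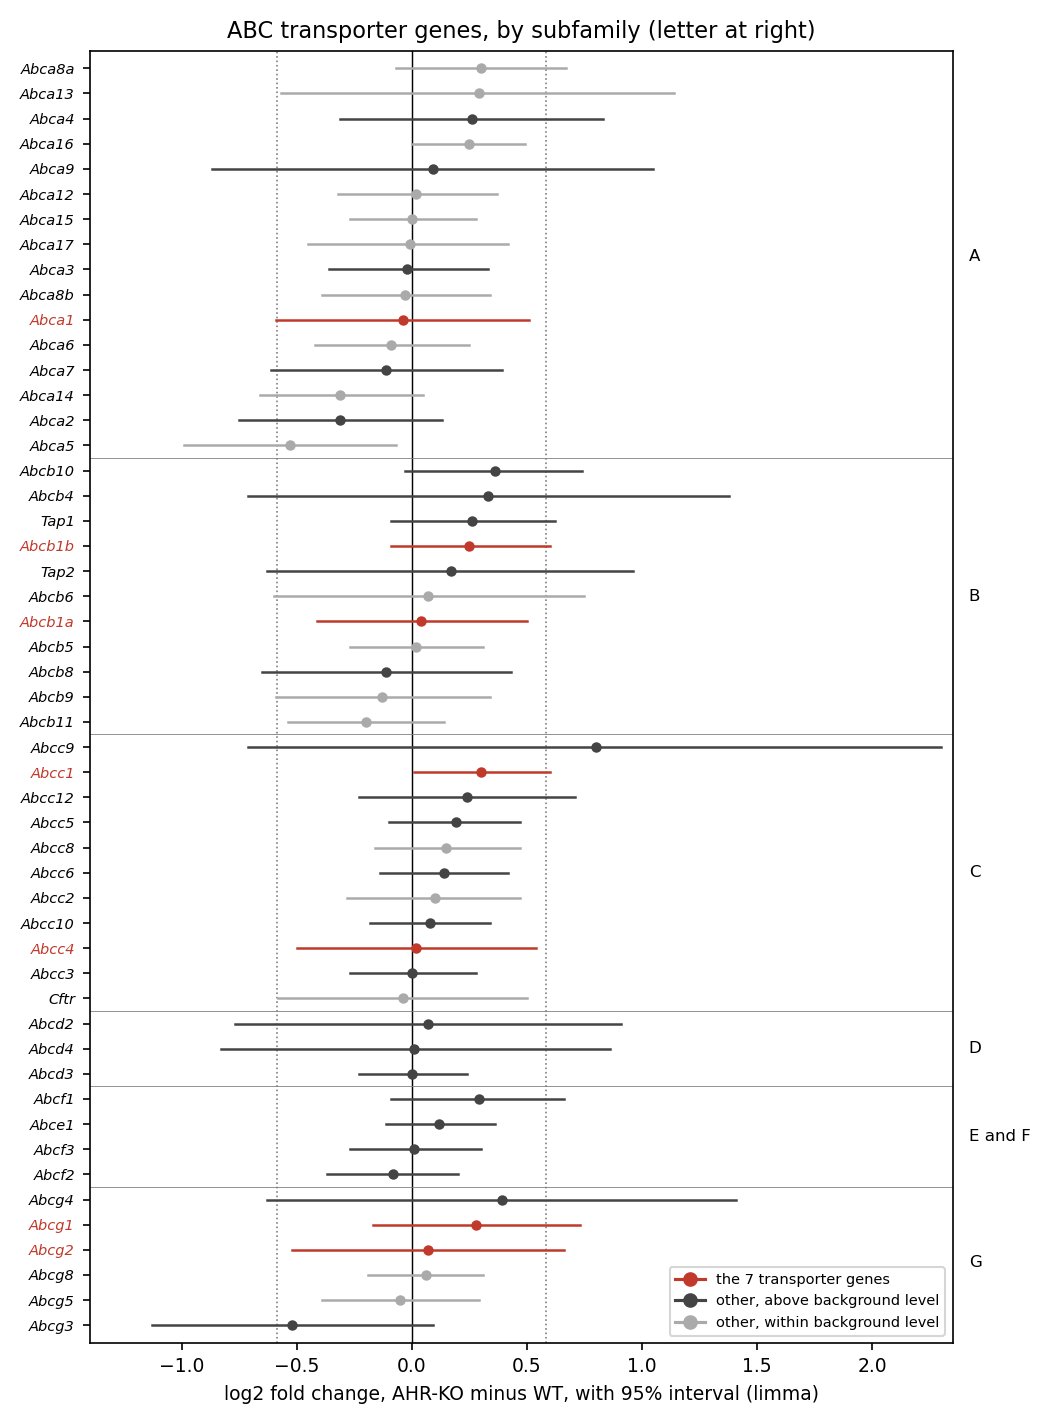
Log2 fold change (AHR-KO minus WT) of the 51 measured ABC genes with the 95% interval from limma, by subfamily, the 7 transporter genes in red, other genes above the background level in dark grey and those within it in light grey, with dotted lines at 1.5-fold. The intervals of Abcc1 and Abca5 are those that leave out 0 at an unadjusted p under 0.05, and Abcc9 has the widest interval.

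Genes that sense foreign compounds or regulate the pumps were split evenly, with 9 of the 18 measured higher and 9 lower in AHR-KO and a median log2 fold change of -0.02. At an unadjusted p under 0.05, 2 of the 18 were higher, beside 1.81% of all genes, and 0 were lower, beside 1.93%. Hif1a, the oxygen-regulated partner of ARNT, read 7.37, 7.71, 7.64, 7.74 and 7.88 in AHR-KO and 7.39, 7.43, 7.53, 7.27 and 6.87 in WT (log2 fold change 0.37, SE 0.15). Arnt itself read 7.88, 7.84, 7.85, 7.86 and 8.10 in AHR-KO and 7.70, 7.42, 7.72, 7.35 and 7.85 in WT (log2 fold change 0.30, SE 0.12). The groups overlapped in both genes. In Hif1a, AHR-KO replicate 1 was below WT replicates 1, 2 and 3, and in Arnt, WT replicate 5 was at the level of AHR-KO replicates 2 and 3. Both had an adjusted p = 0.998 from limma.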

How the data were processed

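Each mouse was measured on an Affymetrix Mouse Gene 2.0 ST array after RNA amplification. Affymetrix Expression Console is the tool in the submitters' processing notes, without a version. The paper's methods name IterPLIER with subtraction of background and quantile normalization, and whether that covers these arrays is not stated. The authors deposited linear intensities. Their medians are equal in the 10 arrays (24.65), and normalization of this kind can hide a change shared by most genes. No sequencing depth applies, and the 5 arrays per group set the precision.

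From the intensities log2(signal + 16) was computed. Of 41345 probe sets, 23521 had 1 gene symbol, 1820 several and 16004 none, and the brightest probe set with 1 symbol stood for each of 22180 genes. Groups were compared with limma 3.58.1 (R 4.3.3), p-values were adjusted by Benjamini-Hochberg over all genes, and single genes were also compared by two-sided exact permutation of the arrays. The study threshold comes from the paper's methods. Pairs used all 720 orderings of 6 arrays (SciPy 1.17.1). The fit was tested on simulated data.

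The transporter genes, lists, tests, array sets and alternatives were chosen with earlier results of these data known. Named besides the 7 genes were, per list, members past the study threshold, then up to 4 with an unadjusted p under 0.05, or else the 2 with the smallest p, and the 3 genes with the highest Pearson's r to each transporter. Alternatives changed the pseudocount, level filter, probe set rule, normalization, variance model, array weights, test, blocks (replicate number or array set) and the arrays included. Promoter windows of Abcc1 and Abcg1 were not analysed here.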

Additional observations from a re-analysis of the deposited data

Results flagged for a closer look

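Arnt in AHR-KO replicate 5, at 8.10 on the log2(signal + 16) scale, stood apart from the other 4 AHR-KO arrays, of which the nearest was at 7.88. Its gap divided by the range of the group was 0.831, above Dixon's critical value of 0.71. It was the only array marked among 34 groups of 5 arrays, from 17 genes, and chance alone marks about 5% of such groups. None of the 7 transporter genes had such an array.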

How the results depend on the processing

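Abcb1b, Abcc1 and Abcg1 kept a positive difference in all 23 alternatives, and no transporter gene reached an adjusted p under 0.05 in any. With the replicate block, Abcc1 had 0.30 on the log2 scale with an unadjusted p = 0.0576 (limma) against 0.0461 without it, and all genes past the study threshold numbered 152 against 116. Deviations of AHR-KO and WT arrays of the same number correlated at 0.352, -0.197, 0.154, 0.214 and -0.124. Whether such arrays share more than a number was not tested. Of the AHR-KO arrays, replicate 1 alone correlated best with its own number. Leaving out AHR-KO replicate 1 or WT replicate 5 moved the unadjusted p of Abcc1 to 0.114 or 0.105. Within the set of 4 arrays its difference was 0.63, with an unadjusted p = 0.0333 from limma. That set holds only 2 arrays per genotype and was drawn from these data. The unadjusted p of Abcb1b was 0.0243 without WT replicate 2, and that of Abcg1 0.0442 without AHR-KO replicate 5.

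Signs turned only in genes with differences near 0. Abcg2 had -0.061 with array weights and -0.15 within the set of 6 arrays, and -0.086 to 0.211 with 1 array left out. Abcb1a had -0.034 within the set of 4 and -0.11 to 0.13 with 1 array left out, and Abcc4 -0.31 and -0.15 to 0.14. Abca1 had -0.24 to 0.12 with 1 array left out. Abcb1a and Abca1 have no value with the filter on level.

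At the study threshold 1 of the 7 genes (Abcc1) was called within the set of 4, and 0 in the other settings. In the ABC family, against 0 in the report, 2 were called with a pseudocount of 1 (Abca16 and Abca5), 2 within the set of 4 (Abca8a and Abcc1), 1 with array weights (Abcg3), 1 with the methods' t-test on linear signals (Abca16), 1 with the array set as a block (Abcc9), 1 within the set of 6 (Abcg3), and 0 to 1 with 1 array left out (Abcg3 without AHR-KO replicate 2, Abca5 without AHR-KO replicate 3 or WT replicate 5, Abcg4 without WT replicate 1). Over all genes the count of 116 became 574 with a pseudocount of 1, 16 with 64, 71 with only genes above the median level, 75 and 368 with the methods' t-test on log2 and linear values, 331 within the set of 6, 845 within the set of 4, and 99 to 230 with 1 array left out, the highest without AHR-KO replicate 2. With array weights this count was 133, and with the array set as a block 164. Except with the filter on level, these counts are out of 22180 genes and the family counts out of 51. Whether the family calls exceed the share over all genes in any setting was not tested. The cause of the changes in these counts was not tested either. For Abcb1a, close to background, the signal limits what can be seen.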
